A study of Rattus norvegicus with 3 samples.

Results

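Dor regions gained on differentiation are defined here as places on chr1 to chr20 that carried a Dor peak in immature oligodendrocytes (iOL) and in mature oligodendrocytes (mOL), but none in oligodendrocyte precursor cells (OPC). Peaks of the 3 lists that overlapped by at least 1 base were joined, which gave 254448 regions, and 4757 of them (1.87%) had an iOL and an mOL peak and no OPC peak. The choice thus rests on the peak calls themselves, so the number of regions and the missing OPC peak are descriptions and were not tested. The study mapped Dor by CUT&Tag, in which an antibody brings a transposase to the bound protein so that the DNA around it is cut, tagged and sequenced. Cells of primary rat cultures were the source: OPC were shaken off mixed glia and kept in a growth medium with bFGF (20 ng/ml) and PDGF-AA (10 ng/ml). For iOL (D1) and mOL (D3) the medium was one for differentiation, with CNTF (10 ng/ml) and T3 (15 nM), and all cells shared a rabbit antibody against Dor. Each stage had 1 library, so no replicate spread exists, no test between stages was made, and intervals cover counting error only. The expression of markers was not measured in these libraries, so the stages are taken from their labels.

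Dor, also known as Tp53inp2, is a protein that shuttles between nucleus and cytoplasm. In the cytoplasm it takes part in autophagy, and in the nucleus it is known as a coactivator of nuclear receptors, among them the thyroid hormone receptor. Thyroid hormone, given here as T3, is a classical signal for precursor cells to leave the cell cycle and become myelinating oligodendrocytes, and CNTF is a cytokine that acts through the JAK and STAT pathway. The labels give T3 as the treatment of iOL and mOL and none for OPC. The stage of a library and its medium therefore cannot be told apart.

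Most of these regions were simple and compact. Their number depended on how overlap was counted, and 2130 were left where iOL and mOL peaks had to share at least 50% of both. Of the 4757, 4745 were made of 1 iOL and 1 mOL peak, 6 held 2 iOL peaks and 6 held 2 mOL peaks. The joined regions had a median width of 652 bases (306 to 2116) and covered 3.27 Mb, or 0.119% of the 2745 Mb of chr1 to chr20. The iOL peak had a median width of 392 bases and the mOL peak of 423 bases. Over all iOL and mOL peaks without an OPC peak these medians were 385 and 396 bases, and in regions with peaks in all 3 libraries they were 469 and 835 bases. The regions gained on differentiation were thus close in width to other peaks without an OPC peak, and narrower than the regions held in all 3 libraries.

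The signal at these regions was mostly weak. Strength is the number of fragments piled up at the summit of a peak divided by the genome background, the mean coverage that the peak caller uses as the lowest background of a library. OPC had a genome background of 1.47 fragments, iOL of 0.540 and mOL of 1.83. A peak could be called from 6.11 times this background on in OPC, from 11.1 times on in iOL and from 5.47 times on in mOL. Median iOL strength was 14.8 times the background (11.1 to 77.7), from 8 fragments. Median mOL strength was 10.4 times (5.47 to 100.04), from 19 fragments. All iOL peaks had the same median of 14.8 times, and all mOL peaks had a median of 8.75 times. In regions of all 3 libraries the medians were 29.6 times in iOL and 36.6 times in mOL. A summit of 20 times the background or more was found in iOL at 1418 of the 4757 regions (29.8%, 28.5 to 31.1%), where 25.7% of all iOL peaks reached it. In mOL it was found at 648 (13.6%, 12.7 to 14.6%), where 8.63% of all mOL peaks reached it. Both peaks reached 20 times at 362 regions (7.61%), against 37.6% of all regions with an iOL and an mOL peak. These 362 are called the strong regions below. Both peaks reached 30 times at 69 regions and 50 times at 3. The limit of 20 depends on the background: with the mitochondrial fragments, estimated at 26.1 to 43.6% of it, left out, 1082 regions reached 20 times in both. That estimate is rough. It multiplies the width of each mitochondrial peak by its summit pileup, which can set it too high, and the genome size used by the caller is not stated.

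**Figure D1:**
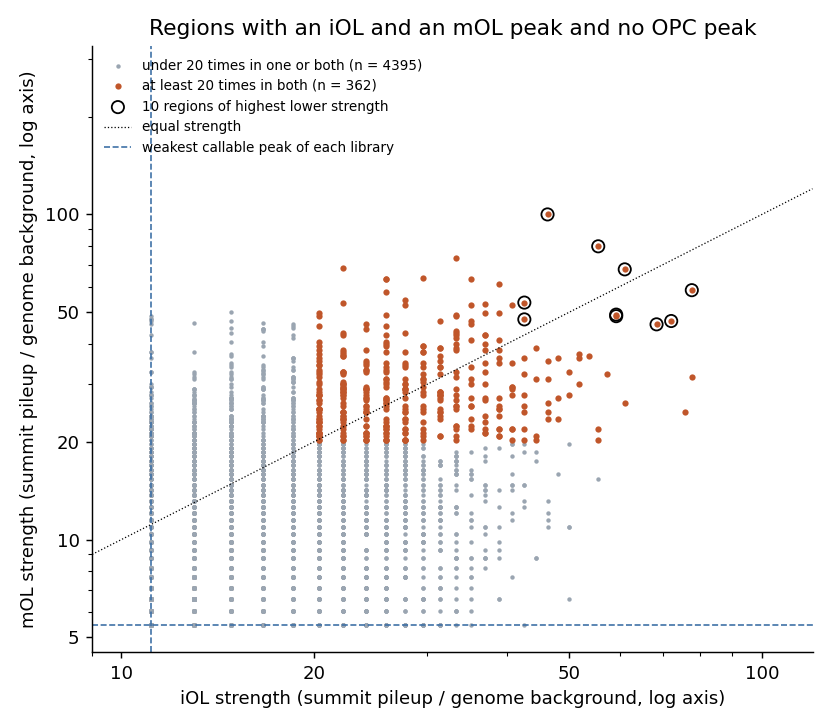
Summit strength in iOL (x axis) and mOL (y axis), as pileup over genome background on log axes, for the 4757 regions with an iOL and an mOL peak and no OPC peak. Most points lie near the dashed lines that mark the weakest callable peak (11.1 times in iOL, 5.47 times in mOL), 362 regions (orange) reach 20 times in both, and circles mark the 10 regions named for the highest lower strength.

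Strength in iOL and in mOL ran only loosely together. Across the 4757 regions Spearman's coefficient was 0.242, and Pearson's coefficient of the log2 strengths was 0.313. Both describe regions that share 2 libraries and a rule of selection, not independent samples. The mOL strength was at most 0.5 times the iOL strength at 1420 regions (29.9%), where 18.9% of all regions with an iOL and an mOL peak showed this. It was at least 2 times at 111 (2.33%, against 9.42%). The median ratio was 0.640, and iOL stood above mOL at 3682 regions (77.4%). With the mitochondrial fragments left out of the backgrounds every ratio is 0.764 times as large. The median was then 0.489, with 2452 regions (51.5%) at 0.5 or less, against 33.9% of all regions with an iOL and an mOL peak, and 28 at 2 or more. With mitochondrial fragments kept in the backgrounds, 7.07% of the regions of all 3 libraries stood at 0.5 or less and 17.1% at 2 or more. A peak had to reach 11.1 times the background to be called in iOL and 5.47 times in mOL, so a low ratio could be seen further down than a high one. Among the 362 strong regions, chosen for reaching 20 times in both libraries and thereby held near a ratio of 1, the median was 1.04 (0.324 to 3.08), or 0.797 without mitochondrial fragments. In regions of all 3 libraries the median was 1.18 with mitochondrial fragments kept. Whether iOL or mOL stood higher at the strong regions thus depended on the background used.

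The 10 regions with the highest lower strength of the pair lay on 9 chromosomes. Coordinates are on the rat build rn5 and counted from 1. At chr17:1081722-1082115 the summit held 33 fragments in iOL and 124 in mOL, or 61.1 times the background in iOL and 67.8 times in mOL, and the summits lay 3 bases apart. At chr9:15645242-15646204 it held 42 fragments in iOL and 107 in mOL, or 77.7 and 58.5 times, with summits 8 bases apart. These regions stood high in both libraries at nearly the same base. At chr1:83414690-83415280 the values were 30 and 146 fragments (55.5 and 79.8 times). At chr9:82441100-82441720 they were 32 and 90 (59.2 and 49.2 times). The ratio of mOL to iOL at these 4 regions lay between 0.752 and 1.44, with counting intervals that all included 1. Without mitochondrial fragments in the background the upper limits at the regions on chromosome 9 were 0.842 and 0.982. Both intervals thus lay below 1 on that rough estimate only.

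Further down the same list, chr7:118007491-118008152 had 32 fragments in iOL and 89 in mOL, or 59.2 and 48.7 times the background. Its folds over the local background, by the authors' values, were 12.7 and 14.3. The region chr6:146389325-146390070 had 39 and 86 fragments (72.2 and 47.0 times), and its mOL to iOL ratio of 0.651 had an interval of 0.441 to 0.977. It was the iOL peak that stood higher there. The opposite order was found at chr10:109116223-109117421, with 25 fragments in iOL and 183 in mOL (46.3 and 100.04 times) and a ratio of 2.16 (1.42 to 3.43). For the other 8 of the 10 regions the interval of the ratio included 1. Without mitochondrial fragments it included 1 at 4 of the 10, lay below 1 at 5 and above 1 at 1, the region on chromosome 10. The last 3 were chr12:27173347-27174657 with 68.5 times in iOL and 45.9 in mOL, chr5:144552601-144553582 with 42.6 and 53.6, and chr8:50463874-50464615 with 42.6 and 47.6. No gene was assigned to a position, because the reference tables used here are of another build.

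Several of the strongest of these regions lay beside an OPC peak. At chr9:15645242-15646204 an OPC peak of 23.7 times the OPC background began 37 bases away, at chr10:109116223-109117421 one of 37.3 times lay 292 bases away, and at chr17:1081722-1082115 one of 33.2 times lay 857 bases away. In 7 of the 10 an OPC peak lay within 3000 bases. Over the 362 strong regions that distance had a lower quartile of 1829 bases and a median of 6559 bases. The local background, which the peak caller takes from the surroundings of a peak, was at least 4 times the genome background in mOL at 8 of the 10. Over the 362 it had a median of 2.95 times and an upper quartile of 4.17 times in mOL. The local background was raised in OPC too: at the OPC peak next to the region on chromosome 17 it was 8.74 times the genome background. At that level OPC would have needed 31 fragments for a call, against 9 at the genome background. The part of the raised OPC background in the missing OPC peaks was not tested. Of the 10, chr12:27173347-27174657, chr6:146389325-146390070 and chr5:144552601-144553582 were the farthest from an OPC peak, at 18171, 10969 and 9912 bases.

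Over all 4757 regions the nearest OPC peak lay at a median distance of 9740 bases (1 to 1120730). It was within 500 bases at 246 regions and within 1000 bases at 412 (8.66%, 7.88 to 9.50%). Of all iOL peaks without an OPC peak 7.33% had one within 1000 bases, and of all mOL peaks without one 6.52% did. The share was higher for stronger regions: it was 5.40% (4.33 to 6.64%) where the weaker of the pair stood under 8 times the background and 17.4% (13.6 to 21.7%) at the strong regions. Next to the 63 strong regions with an OPC peak so close, that peak had a median strength of 14.2 times the OPC background. Local background rose along with strength, from a median at the genome background in both libraries under 8 times to 1.78 times the genome background in iOL and 2.95 times in mOL at the strong regions. The strong regions thus lay nearer to OPC peaks, and in denser surroundings, than the weak ones.

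**Figure D2:**
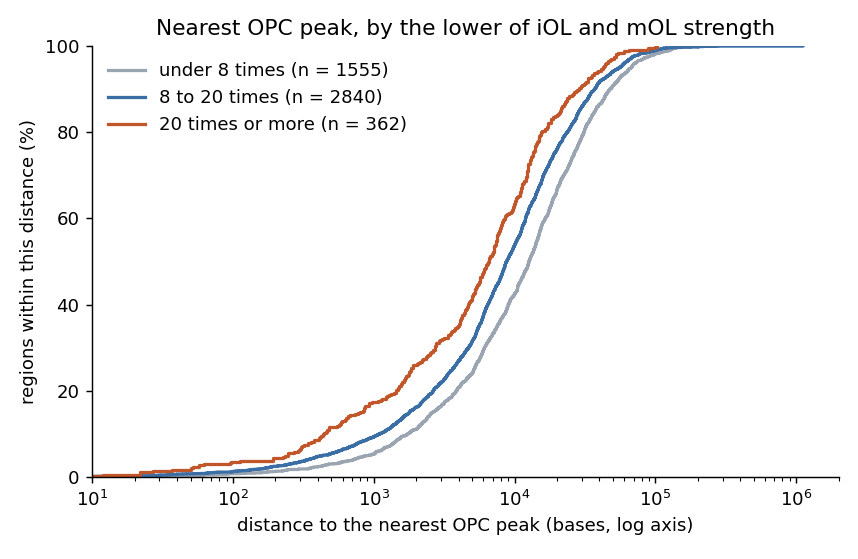
Cumulative share of the regions (y axis) by the distance in bases to the nearest OPC peak (x axis, log), in 3 classes of the lower of iOL and mOL strength. The curve of the 362 strong regions lies to the left, with a median of 6559 bases against 12659 bases for the 1555 regions under 8 times the background.

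Some of the regions were far from any OPC peak even though both their peaks were strong. Of the 362, 133 (36.7%) lay over 10000 bases from one. The farthest was chr2:193886723-193887215, with 11 fragments in iOL and 46 in mOL (20.4 and 25.1 times the background) and the nearest OPC peak 103364 bases away. Its summits were 3 bases apart, and 0 OPC, 0 iOL and 7 mOL peaks lay between 5 and 50 kb from it. The next was chr2:41994817-41996026, with 12 and 54 fragments (22.2 and 29.5 times), summits 1 base apart and an OPC peak 100008 bases away. The third was chr17:43463600-43464312, with 11 and 43 fragments (20.4 and 23.5 times), summits 33 bases apart and an OPC peak 89403 bases away. The authors' fold of its mOL peak was 14.5, the highest of these 3. In iOL the local background at all 3 was that of the genome. By the measure of OPC coverage given below, their mOL summits reached the 32 fragments needed. Their iOL summits were under the 13 fragments needed, a limit that allows for counting error in the iOL pileup. As observed, their iOL strengths of 20.4 to 22.2 times stood above 6.11 times, the lowest OPC call at the genome background.

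The most unequal of the strong regions differed by about 3 times between iOL and mOL. The highest mOL to iOL ratio among the 362 was 3.08 (1.70 to 6.11), at chr1:147662629-147663509, with 12 fragments in iOL and 125 in mOL. At chr13:73820540-73821366 and chr17:31704116-31706231 there were 14 and 116 fragments, a ratio of 2.45 (1.40 to 4.61). The region on chromosome 17 was 2116 bases wide, the widest of the 4757. The lowest ratio was 0.324 (0.208 to 0.507), at chr20:6941792-6942518, with 41 fragments in iOL and 45 in mOL at the same summit base. It was followed by chr1:30632862-30633536 with 30 and 37 fragments (0.364, 0.219 to 0.610) and chr3:180981930-180982470 with 30 and 40 (0.394, 0.239 to 0.655). These 6 were picked as the most unequal of the 362, a choice that the intervals do not take into account.

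Whether an iOL peak that OPC lacked was found again in mOL depended on its strength. Of the 57276 iOL peaks, 51447 had no OPC peak (89.8%), and 5018 of these overlapped an mOL peak (9.75%, 9.50 to 10.01%). Over all iOL peaks 15.8% did so, and of the 5829 iOL peaks with an OPC peak 69.5% did (68.3 to 70.6%). Among iOL peaks without an OPC peak the share was 8.27% under 15 times the background, 13.0% at 20 to 30 times, 23.5% at 30 to 50 times and 60.5% (26 of 43, 44.4 to 75.02%) at 50 times or more. With an OPC peak it was 30.2%, 74.2%, 90.4% and 97.1% in the same classes. At each of these strengths the intervals of iOL peaks with and without an OPC peak did not overlap. The share in mOL was thus lower for iOL peaks that OPC lacked than for those that OPC had, within each class of strength. The class of 50 times or more has no upper limit. There iOL peaks reached 85.2 times without an OPC peak and 498 times in regions of all 3 libraries. The iOL peaks of those regions were also wider (median 469 against 385 bases), and width was not matched.

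These shares can be set beside the length that mOL peaks cover. The mOL peaks lay so that an interval of 385 bases, the median width of iOL peaks without an OPC peak, would touch one on 4.95% of the length of chr1 to chr20. Between 5 and 50 kb from those iOL peaks the figure was 6.25%. With the width and surroundings of each class of strength it was 6.03% under 15 times, 6.70% at 20 to 30 times and 7.70% at 30 to 50 times. The shares found in mOL were 1.37, 1.95 and 3.05 times these values. In the other direction 145956 of 160142 mOL peaks had no OPC peak (91.1%), and 4835 of these overlapped an iOL peak (3.31%, 3.22 to 3.41%), where 5.65% of all mOL peaks did. By strength this share was 2.39% under 8 times, 8.89% at 20 to 30 times, 18.3% at 30 to 50 times and 23.6% (21 of 89) at 50 times or more. The length in reach of iOL peaks, 5 to 50 kb away, was 1.91%, 3.10%, 3.73% and 4.04% in these classes, so the shares were 1.26, 2.86, 4.92 and 5.83 times the length in reach. In both directions the share stood above the length in reach in the weakest class, and further above it in the stronger ones.

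**Figure D3:**
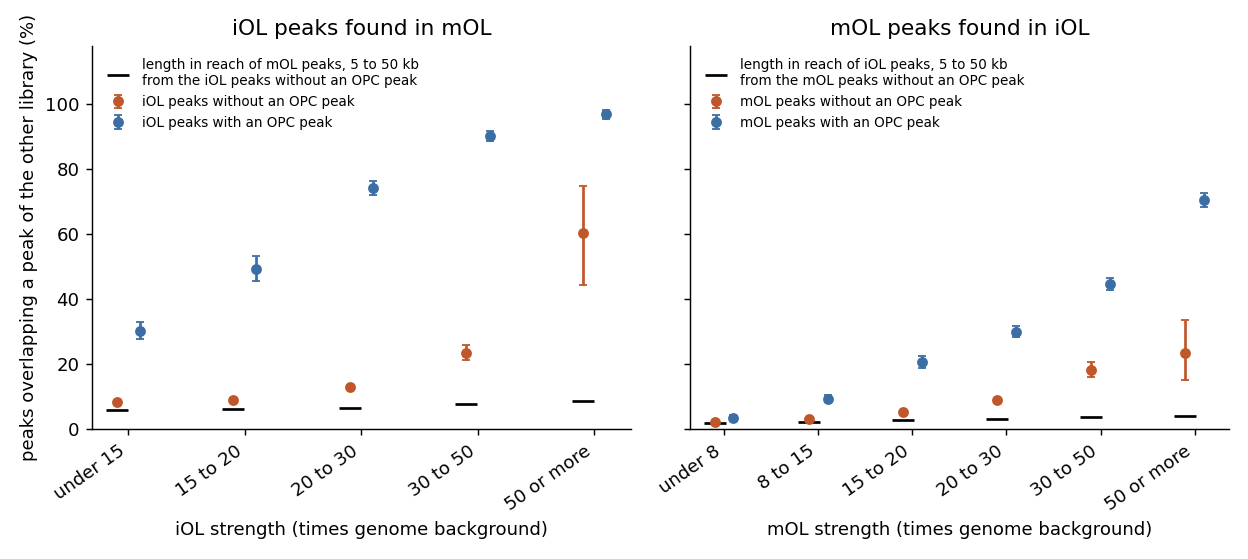
Share of iOL peaks that overlapped an mOL peak (left) and of mOL peaks that overlapped an iOL peak (right), in percent with 95% intervals, by strength and by whether the peak overlapped an OPC peak. Without an OPC peak (orange) the iOL share goes from 8.27% under 15 times the background to 60.5% at 50 times or more, while the length in reach of mOL peaks (black dashes) goes from 6.03% to 8.86%.

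The mirror case, iOL regions shared with OPC and not with mOL, was smaller: 1639 regions had an OPC and an iOL peak and no mOL peak, against 4757 with an iOL and an mOL peak and no OPC peak. The lists differ in length, so these numbers are not on equal terms. Of the 48209 iOL peaks without an mOL peak, 3.69% (3.53 to 3.86%) overlapped an OPC peak, and 2.44% of the length 5 to 50 kb from them was in reach of one. The share over the length in reach was thus 1.51, and it was 1.56 for iOL peaks without an OPC peak in mOL.

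The position of the summits was not part of the rule. The iOL and mOL summits of a region lay a median of 195 bases apart (0 to 1403), and within 50 bases at 651 regions (13.7%, 12.7 to 14.7%). The overlap had a median of 254 bases, 60.7% of the iOL peak and 49.6% of the mOL peak. At 728 regions the whole iOL peak lay inside the mOL peak, and at 286 the whole mOL peak inside the iOL peak. Among the 362 strong regions the summit distance was smaller, with a median of 154 bases, and 20.7% (16.7 to 25.3%) lay within 50 bases. Under 8 times the background 12.9% (11.2 to 14.6%) did. Overlapping pairs that both had an OPC peak were compared by class, since they were stronger. At 20 to 30 times, the median was 155 bases in 293 regions without an OPC peak and 186 bases in 1282 pairs with one, and 21.2% (16.6 to 26.3%) and 14.8% (12.9 to 16.9%) lay within 50 bases. At 30 times or more the medians were 150 bases in 69 regions and 127 bases in 1666 pairs. Within 50 bases lay 18.8% (10.4 to 30.1%) and 22.8% (20.8 to 24.9%). This class has no upper limit, so regions and pairs were not matched in strength within it. At 20 to 30 times summits thus lay closer without an OPC peak, and at 30 times or more closer with one. The intervals of the shares overlapped in both classes, only slightly at 20 to 30 times, and the differences were not tested.

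**Figure D4:**
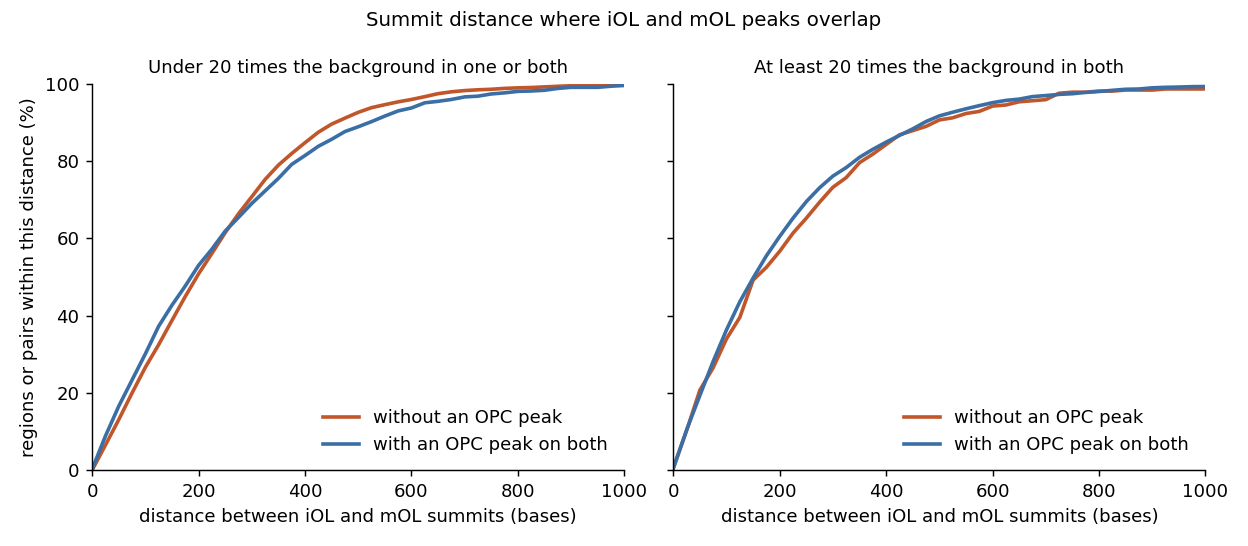
Cumulative share of regions or pairs (y axis) by the distance in bases between overlapping iOL and mOL summits (x axis), for regions without an OPC peak (orange) and for pairs in which both peaks overlapped an OPC peak (blue), below 20 times the background in at least 1 library (left) and at 20 times or more in both (right). The curves on the right, with medians of 154 and 152 bases, pool unlike strengths: 293 of the 362 regions but 1282 of the 2948 pairs stand at 20 to 30 times, where the medians are 155 and 186 bases.

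With counting error allowed for, the OPC library was nearly certain to show a peak of equal strength at only some of these regions. As observed, every iOL peak stood at 11.1 times the background or more, above the 6.11 times of the weakest OPC call. The mOL peaks started at 5.47 times. An OPC pileup of 8 fragments, or 5.43 times its background, is the highest that would not be called at the genome background. If signal over background were equal between libraries, the lower 95% limit of the iOL pileup would be called in OPC, with a probability of at least 0.99, at 852 regions (17.9%), all those of 13 fragments or more. Of all iOL peaks without an OPC peak this held for 10.9%. From the mOL pileup it held at 916 regions (19.3%), those of 32 fragments or more, and at 7.38% of all mOL peaks without an OPC peak. From both it held at 340 regions, and from neither at 3329 (70.0%, 68.7 to 71.3%). The number fell to 95 when the OPC background was raised over that of the genome as far as the higher of the local iOL and mOL backgrounds. At equal signal over background, the OPC coverage would thus have sufficed for a nearly certain call at 340 of the 4757 regions (7.15%). By the stricter count it was 95. The pileups are those of the peaks that the rule picked, so this count describes coverage and is no test of a gain. At the others a call in OPC was not nearly certain from both limits, though at some it was from 1 of them. Neither there nor at the 340 does the count show whether the missing OPC peak is a gain.

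The surroundings of these regions were not poor in OPC peaks. Between 5 and 50 kb from their centres lay a mean of 2.96 OPC, 2.54 iOL and 7.43 mOL peaks. Around regions of iOL alone these means were 2.57, 2.32 and 6.49, around regions of mOL alone 2.65, 2.36 and 6.84, and around regions of all 3 libraries 3.54, 2.97 and 8.46. Of all these neighbouring peaks 22.9% were OPC peaks, and the share ran from 22.3 to 23.6% over the 7 classes of region. Around the 362 strong regions the means were 3.57, 2.94 and 8.69, close to those around regions of all 3 libraries. The share of OPC peaks in the surroundings was thus about the same as for any other class.

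Along the chromosomes the regions followed the density of peaks in general. They numbered 1.73 per Mb over chr1 to chr20. Chromosome 10 had 277, or 1.44 times the mean density (1.28 to 1.62), and all iOL, mOL and OPC peaks stood there at 1.33, 1.41 and 1.40 times. Chromosome 4 was lowest with 317, at 0.737 times (0.658 to 0.823), against 0.758, 0.762 and 0.761 times. On chromosome 12 there were 129 regions, at 1.37 times (1.14 to 1.62), where all iOL peaks stood at 1.05 and all mOL peaks at 1.21 times. There 13.1% (11.1 to 15.3%) of the iOL peaks without an OPC peak overlapped an mOL peak, the highest share of the 20 chromosomes, against 9.75% over all. Chromosome 2 had the lowest, 8.29% (7.53 to 9.09%). Of the 362 strong regions 31 lay on chromosome 10 and 17 on chromosome 12, or 2.12 (1.44 to 3.01) and 2.37 (1.38 to 3.79) times their mean density. The density of all peaks of such strength was not counted by chromosome. Whether these values are particular to regions without an OPC peak was therefore not tested.

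**Figure D5:**
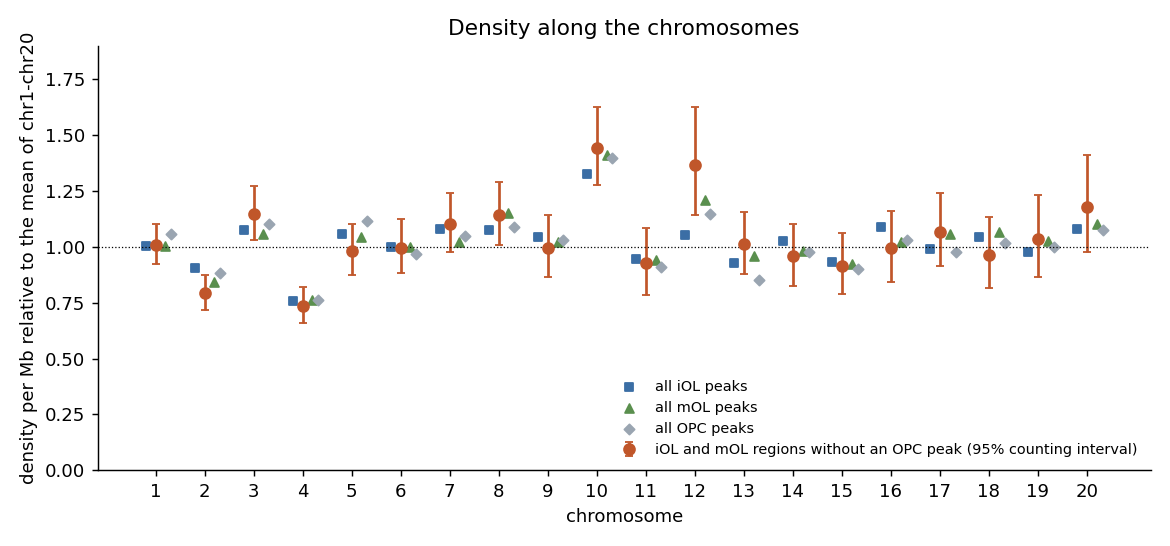
Density per Mb relative to the mean of chr1 to chr20 (y axis) for each chromosome (x axis), for the regions without an OPC peak (orange, with 95% counting intervals) and for all iOL, mOL and OPC peaks. The regions follow the peaks in general, from 0.737 times on chromosome 4 to 1.44 times on chromosome 10.

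The regions were spread thinly. Of 2756 windows of 1 Mb, 753 held none, 707 held 1 and 187 held 5 or more. The windows with the most were chr7:11000001-12000000 and chr8:128000001-129000000 with 11 each and chr15:37000001-38000000 with 10. The window on chromosome 7 held 68 OPC, 57 iOL and 122 mOL peaks in all, and 3 of its 11 regions were strong. That on chromosome 8 held 34, 36 and 94 peaks, and 0 of its 11 were strong. Only 29 neighbouring pairs lay less than 5000 bases apart.

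The rule has an edge on each side. The smallest overlap was 1 base, as at chr1:127234807-127235631, with 12 fragments in iOL and 24 in mOL, and at chr1:282381108-282381820, with 9 and 14. Just outside, on chromosome 3, an iOL peak of 10 fragments ended at base 176643709 and an mOL peak of 11 fragments began at the next base. On chromosome 4 an iOL peak of 6 fragments ended at base 208594631 and an mOL peak of 57 fragments began at the next. An overlap of 10 bases or fewer made 168 of the 4757 regions. On the OPC side, chr8:25583667-25584545 and chr14:10673407-10674211 each lay 1 base from an OPC peak, of 7.46 and 10.2 times the OPC background. Left out by the smallest OPC overlaps were chr7:58776356-58777667, where an OPC peak of 19 fragments overlapped by 7 bases, and chr8:129921377-129922600, where one of 17 fragments overlapped by 8 bases.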

How the data were processed

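The deposited data were 1 peak list per library in the narrowPeak layout. Per the submitters' processing notes the build was rn5 and the tools were MACS2 2.2.7.1, Bowtie2 2.4.4 and deepTools 3.5.1, with no roles named. Apart from the word pool in the peak names, nothing used here states what was pooled, the control library or the treatment of duplicates. The authors' values are a fold over local background (a linear ratio), p and q on the −log10 scale (no p value under 5), and a score, which was not used. Per the deposited columns, start, end and summit are other values, in bases.

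Pileup and background were recovered from fold and p, as MACS2 adds a pseudocount of 1 to both for the fold and p is a Poisson tail. A whole number was found within 0.002 for 100% of peaks, and recovery and joining were tested on simulated data. The lists held 64732 OPC, 59681 iOL and 166805 mOL rows, of which 62263, 57276 and 160142 lay on chr1 to chr20. Shares carry exact Clopper-Pearson 95% intervals, densities exact Poisson ones, and ratios conditional binomial ones. Fragments were taken as independent molecules. Python 3.11.15 with scipy 1.17.1 was used.

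The regions, lists and rules were chosen with earlier results of these data known. The regions named are those of highest lower strength (10), of extreme ratio (3 each way), farthest from OPC (3) and at the edges of the rule (2 each), and the 3 windows with the most regions. Genes and sequences were not used, since the reference tables are of another build. Alternatives were stricter q or fold, equal lists, 50% overlap, summit windows, a wider OPC exclusion and more sequences.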

Additional observations from a re-analysis of the deposited data

Results flagged for a closer look

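Chromosome X lies outside the rule, and 157 regions there had an iOL and an mOL peak and no OPC peak. That is 1.02 per Mb, or 0.586 times the mean density of chr1 to chr20, and 9 of them stood at 20 times the background or more in both libraries. The chromosome, of 155 Mb, held 2450 OPC, 2388 iOL and 6629 mOL peaks. Chromosome 6, of 157 Mb, held 3450, 3270 and 9165, so peaks of all 3 libraries were sparser on chromosome X. Whether the regions were sparser there than peaks in general was not tested. Unplaced sequences held 0 peaks of any of the 3 libraries, so no such region could be found there.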

How the results depend on the processing

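The number of regions was 2333 with a −log10 q of at least 5 in all lists, 2388 with a fold of at least 5, 2281 with that q in iOL and mOL against the full OPC list, 2173 with lists of equal length, 2130 where 50% of both peaks had to overlap and 2979 with 200 bases at each summit. In the same order, the share of iOL peaks without an OPC peak found in mOL was 9.38%, 7.03%, 9.33%, 4.67%, 4.19% and 5.94%, and with no OPC peak within 500 bases 9.29%. The share of mOL peaks found in iOL was 2.15%, 3.10%, 2.13%, 4.76%, 1.47% and 2.07% in that order. Strong regions numbered 174 with an overlap of 50% of both and 551 at summits. They numbered 1082 with the background estimated without mitochondrial fragments, which lowers every background (1.47 to 0.920 in OPC, 0.540 to 0.305 in iOL and 1.83 to 1.35 in mOL). Regions that OPC had the coverage to call with near certainty numbered 164, 514 and, with the OPC background at the local level, 95. The median summit distance was 112 bases with an overlap of 50% and 92 bases at summits, both stricter rules for the overlap of iOL and mOL peaks. Windows of 200 bases overlap only where summits lie under 200 bases apart, so that setting bounds the distance. It was not stricter throughout, since strong regions rose from 362 to 551. Adding chromosome X, with no peaks on unplaced sequences to add, gave 4914 regions. Excluding OPC peaks within 500 bases left 4511. The estimate without mitochondrial fragments and the local OPC level were chosen after seeing the data. Depth limits iOL most, since its weakest callable peak, of 6 fragments, stands at 11.1 times the background. No paired analysis was possible because there was a single library for a stage.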
